A study of Mus musculus with 9 samples.

Results

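The genes described here encode the UDP-glucuronosyltransferases (UGT), glutathione S-transferases (GST, cytosolic and microsomal) and sulfotransferases (SULT), the enzymes of phase II drug metabolism. Members were taken by mouse gene symbol: the Ugt1a, Ugt1b, Ugt2a and Ugt2b symbols, the Gst symbols of the alpha, kappa, mu, omega, pi and theta classes, the Mgst symbols and the Sult symbols, without pseudogenes. This gave 58 genes of the 24011 genes named on the array: 15 UGT, 22 GST and 21 SULT genes. The reference gene list held 64 protein-coding genes that match the rule, so the families are not fully covered here. Expression in the large intestine was measured on 9 Affymetrix Mouse Gene 2.0 ST arrays, 3 for each of 3 hairpins, and the deposited values are log2 RMA levels. The study compared mice in which a hairpin RNA against Dhx9, which encodes an RNA and DNA helicase, was switched on with mice carrying a control hairpin. The DHX9-837 group carried the hairpin DHX9.837 with rtTA, the DHX9-1271 group carried DHX9.1271 with rtTA, and the control group carried FLuc.1309, a hairpin labelled FLUC after firefly luciferase, with rtTA. rtTA is the doxycycline-dependent activator that switches the hairpin on, and the labels do not name the promoter that drives it. All the mice, controls included, were on C57BL/6 and drank doxycycline at 1 mg/ml with 5% sucrose for 14 days from 4 weeks of age, so every group shares the drug and the transactivator. Whether the 3 replicates of a group were separate animals is not stated, so p-values describe only how these samples varied, which may be technical.

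Phase II enzymes attach a polar group to drugs, dietary compounds, bile pigments, bile acids and hormones, which makes them easier to excrete. UGTs in the endoplasmic reticulum transfer glucuronic acid from UDP-glucuronic acid, SULTs in the cytosol transfer sulfate from PAPS, and GSTs couple reactive compounds to glutathione. In the gut the surface epithelium carries much of this capacity, and genes of these families are known targets of the nuclear receptors PXR and CAR, of AHR and of NRF2.

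Promoter sequence is shown for 6 members whose levels are described below, as examples of how the start regions differ. RefSeq start windows (GRCm38.p6) ran from 250 bases before to 50 after a gene start. They were matched by Entrez Gene number for 51 of the 58 members, and for 30 of the 33 members that were tested. The 250 bases before the start are printed 5′ to 3′ on the gene's strand, and capitals mark a motif. Ugt1a1 (chr1:88211709-88211958, plus strand) has the leading part of the element bound by HNF1, a factor of gut and liver epithelium, on the opposite strand. Ugt1a7c (chr1:88094751-88095000, plus strand) and Sult1a1 (chr7:126676419-126676668, minus strand) have none of the motifs searched for in the printed bases. Gstp3 (chr19:4059448-4059697, minus strand) has GCGTG, the core of the AHR element. Gsta3 (chr1:21240335-21240584, plus strand) and Mgst1 (chr6:138140277-138140526, plus strand) have TGACNNNGC, the core of the antioxidant response element bound by NRF2, in Mgst1 on the opposite strand.
Ugt1a1: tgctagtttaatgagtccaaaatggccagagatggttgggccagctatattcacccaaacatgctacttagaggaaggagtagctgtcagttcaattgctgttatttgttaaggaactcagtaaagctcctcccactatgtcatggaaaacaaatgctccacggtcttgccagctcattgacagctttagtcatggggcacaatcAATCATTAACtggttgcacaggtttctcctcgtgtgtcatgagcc
Ugt1a7c: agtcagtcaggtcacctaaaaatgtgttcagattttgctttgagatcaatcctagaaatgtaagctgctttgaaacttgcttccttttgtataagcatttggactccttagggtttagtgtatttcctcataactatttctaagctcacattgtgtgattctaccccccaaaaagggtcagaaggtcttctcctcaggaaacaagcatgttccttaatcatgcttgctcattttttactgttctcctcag
Sult1a1: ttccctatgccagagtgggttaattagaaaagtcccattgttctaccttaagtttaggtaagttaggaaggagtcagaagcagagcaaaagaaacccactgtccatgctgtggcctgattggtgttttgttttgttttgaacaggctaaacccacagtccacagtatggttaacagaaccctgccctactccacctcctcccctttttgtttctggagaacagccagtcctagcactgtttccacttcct
Gstp3: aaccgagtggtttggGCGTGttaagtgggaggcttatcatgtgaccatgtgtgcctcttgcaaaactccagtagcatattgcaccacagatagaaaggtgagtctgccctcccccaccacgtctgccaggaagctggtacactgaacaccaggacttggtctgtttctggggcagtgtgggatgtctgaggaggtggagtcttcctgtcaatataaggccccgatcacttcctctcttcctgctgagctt
Gsta3: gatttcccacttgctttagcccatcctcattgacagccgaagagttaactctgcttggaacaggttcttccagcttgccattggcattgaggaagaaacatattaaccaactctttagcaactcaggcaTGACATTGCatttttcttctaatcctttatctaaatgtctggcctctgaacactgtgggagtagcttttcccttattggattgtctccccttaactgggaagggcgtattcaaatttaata
Mgst1: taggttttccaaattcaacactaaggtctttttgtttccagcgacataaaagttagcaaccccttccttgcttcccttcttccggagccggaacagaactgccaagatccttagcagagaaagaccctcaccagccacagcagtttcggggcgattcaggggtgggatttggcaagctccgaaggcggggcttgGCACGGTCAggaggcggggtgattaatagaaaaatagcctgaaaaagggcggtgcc

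Both strands of 62 member windows and of all 32851 RefSeq windows were searched, and a match is a description of letters only. TGACNNNGC was in 4 member windows (6.45%), against 12.4% of all windows: Gsta3 at 121 bases before the start, Gstm7 at 129, Mgst1 at 56 and Gstm5 at 42, where it overlaps GCGTG. The AHR core was in 17.7% of member windows, against 32.4% of all windows. TATAAA was in 24.2% of member windows, against 13.6% of all windows. The full HNF1 element was in 0 member windows and in 3 windows of all. Its first 10 letters were searched for after the windows had been seen, and were in 8 member windows (12.9%), against 0.399% of all windows. Tested members that held them were Ugt1a1 at 45 bases before the start, Sult1d1 at 79 and Sult2a4 at 107. Neighbouring family members share sequence through duplication, so the windows are not independent.

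A gene was tested when its mean log2 level over the 9 arrays reached the 30th percentile of all named genes (5.28), and was called at a Benjamini-Hochberg adjusted p under 0.05 from limma over the 16808 genes tested. Of the members, 33 passed this filter (7 UGT, 20 GST and 6 SULT) and 25 did not (8 UGT, 2 GST and 15 SULT). Dhx9 itself averaged 8.20 ± 0.017 in DHX9-837, 8.22 ± 0.044 in DHX9-1271 and 9.24 ± 0.072 in control (SD, n = 3 each), which left 48.8% and 49.6% of the control signal with DHX9-837 and DHX9-1271. The log2 difference in Dhx9 between DHX9-837 and DHX9-1271 was -0.02 (95% interval -0.14 to 0.09, adjusted p = 0.908). Arrays of a group correlated at 0.979 to 0.995 over the 16808 genes tested, and arrays of different groups at 0.959 to 0.988.

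With DHX9-837, 5 of the tested members rose and 7 fell against control, that is 15.2% and 21.2%, where 8.67% of all tested genes rose and 6.91% fell. With DHX9-1271, 4 rose (12.1%) and 1 fell (3.03%), where 2.83% of all tested genes rose and 1.58% fell. A further contrast set the mean of the DHX9-837 and DHX9-1271 group means, called the hairpin mean below, against control, so a gene can be called there that moved with 1 hairpin. In it, 5 rose (15.2%) and 8 fell (24.2%), where 8.13% rose and 5.33% fell over all tested genes. Of 7 UGT genes, 5 fell and 0 rose with DHX9-837, 0 were called with DHX9-1271, and 4 fell for the hairpin mean. Of 20 GST genes, 5 rose and 0 fell with DHX9-837, 3 rose and 1 fell with DHX9-1271, and 4 rose and 2 fell for the hairpin mean. Of 6 SULT genes, 2 fell with DHX9-837, 1 rose with DHX9-1271, and 1 rose and 2 fell for the hairpin mean. All of these contrasts use the same 3 control arrays. All 3 DHX9-1271 arrays lay above control for each of its 4 rises, as for 2594 of the 16808 genes tested. The calls came from the same arrays, so this adds no support to them. With any 1 array left out the folds were 0.39 to 0.48 for Gstp3, 0.42 to 0.56 for Gstk1, 0.40 to 0.51 for Gstm3 and 0.42 to 0.63 for Sult2b1. The adjusted p of the 4 rises was over 0.05 in some of these fits, at up to 0.0983. Without any single DHX9-1271 array 0 of the 4 rises were called, and without control replicate 1 there were 2. The fall, Mgst2, was not called without control replicate 2 or 3, DHX9-1271 replicate 2 or 3, or DHX9-837 replicate 1. Without DHX9-837 replicate 2, 2 genes fell. For the hairpin mean, 4 of the 8 falls were called without control replicate 3.

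**Figure D1:**
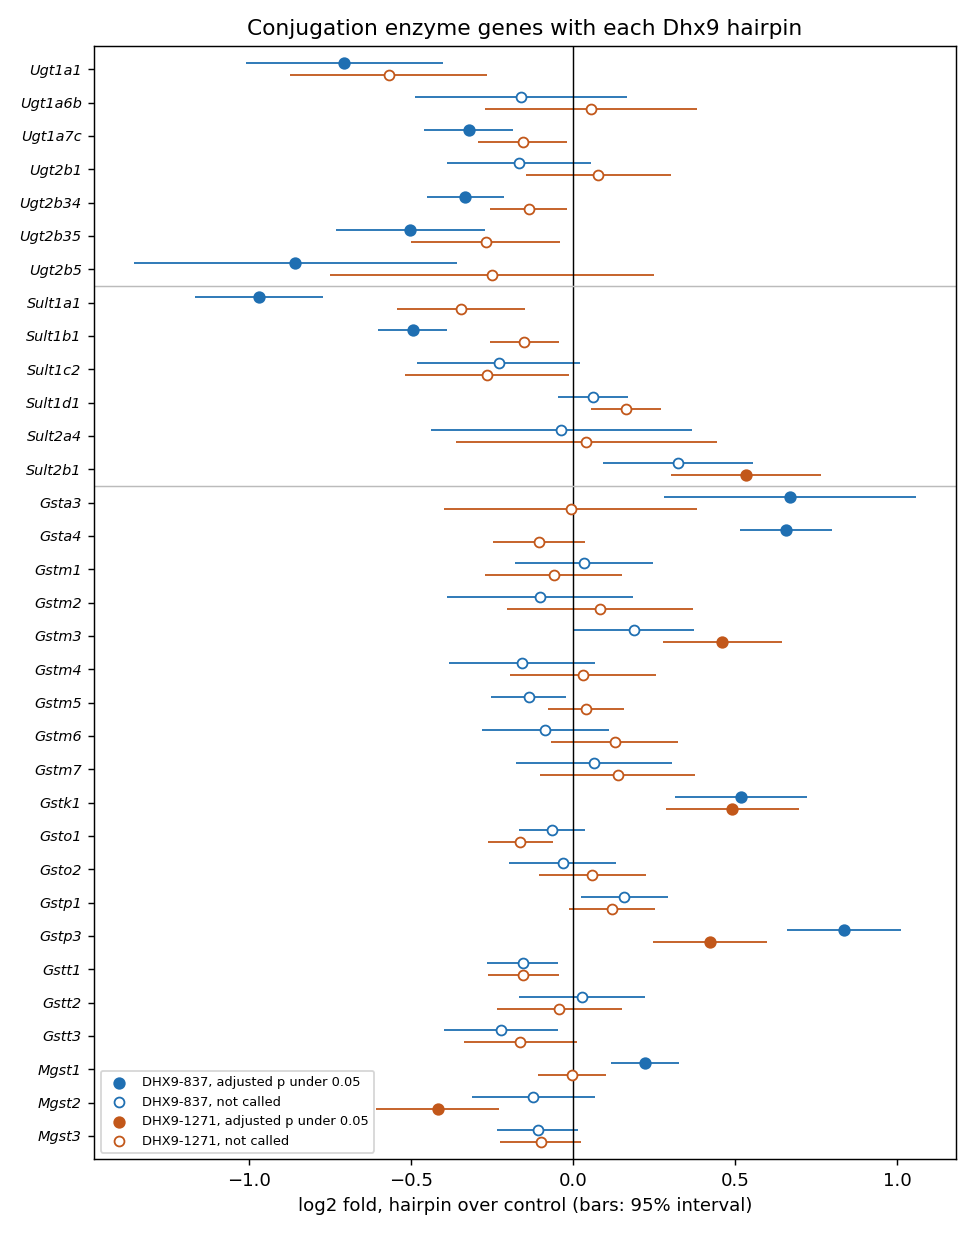
Log2 fold of each tested member with DHX9-837 and with DHX9-1271 over control (x axis), with 95% intervals, one gene per line, and filled points for an adjusted p under 0.05. UGT genes lie at or left of 0 with DHX9-837, Sult1a1 is the leftmost point at -0.97, and Gstp3 the rightmost at 0.84.

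The UGT genes that were called fell with the hairpins: Ugt1a1, Ugt1a7c, Ugt2b34, Ugt2b35 and Ugt2b5 with DHX9-837, and the first 4 of these for the hairpin mean. The median log2 fold of the 7 tested UGT genes was -0.33 with DHX9-837, -0.16 with DHX9-1271 and -0.24 for the hairpin mean, and 7 of 7 had a negative fold with DHX9-837, while the medians over all tested genes were -0.0012, 0.0057 and 0.0011. In bulk tissue, fewer cells of a type and less RNA per cell cannot be told apart. Genes of the UGT1A locus share their last exons, and the Ugt2b genes are close copies, so signal between near-identical members is uncertain.

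Ugt1a1, the bilirubin-conjugating enzyme, read 7.51, 8.04 and 7.83 in DHX9-837, 7.99, 7.84 and 7.95 in DHX9-1271, and 8.71, 8.37 and 8.43 in control. Every hairpin array lay below every control array. It fell with DHX9-837 (log2 fold -0.71, SE 0.134, adjusted p = 0.00882), to 61.3% of control, and for the hairpin mean (-0.64, SE 0.116, adjusted p = 0.00876). With DHX9-1271 its fold was -0.57 (adjusted p = 0.0504), and this passed the threshold with cyclic loess, array centring, a trended variance, a median filter or the compared arrays alone, and without DHX9-837 replicate 1 (0.0313) or 2 (0.0411).

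Ugt1a7c, a UGT1A isoform, read 11.07, 11.27 and 11.11 in DHX9-837, 11.37, 11.28 and 11.30 in DHX9-1271, and 11.49, 11.42 and 11.51 in control. The control arrays again lay above all the others. The gene fell with DHX9-837 (-0.32, SE 0.061, adjusted p = 0.00863), and for the hairpin mean by 0.24 on the log2 scale (adjusted p = 0.0192), a call lost without control replicate 1 (0.0667) or 3 (0.0636). With DHX9-1271 the fold was -0.16 (adjusted p = 0.192). Ugt1a6b, of a subfamily known for phenol substrates, read 6.679, 6.998 and 7.078 in DHX9-837, 7.358, 7.039 and 7.001 in DHX9-1271, and 7.039, 6.888 and 7.309 in control. Its groups overlapped, and it was not called.

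Ugt2b34, a UGT2B enzyme, read 11.28, 11.31 and 11.19 in DHX9-837, 11.50, 11.40 and 11.47 in DHX9-1271, and 11.62, 11.54 and 11.62 in control. The groups stood in steps without overlap. It fell with DHX9-837 (-0.33, SE 0.052, adjusted p = 0.00379) and for the hairpin mean (-0.235, adjusted p = 0.0108), while with DHX9-1271 the fold was -0.14 (adjusted p = 0.181). Ugt2b35 read 5.94, 6.30 and 5.91 in DHX9-837, 6.30, 6.25 and 6.30 in DHX9-1271, and 6.63, 6.43 and 6.59 in control. Every hairpin array was lower than the controls, and the gene fell with DHX9-837 (-0.50, SE 0.101, adjusted p = 0.0112) and for the hairpin mean (-0.39, adjusted p = 0.0216, lost without control replicate 1 at 0.0853 or 3 at 0.0698). With DHX9-1271 its fold was -0.27 (adjusted p = 0.176).

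Ugt2b5 read 5.78, 6.34 and 6.34 in DHX9-837, 6.67, 6.68 and 6.94 in DHX9-1271, and 6.52, 7.28 and 7.25 in control. The DHX9-837 arrays lay below all controls, while DHX9-1271 overlapped them because control replicate 1 was low. The fall with DHX9-837 (-0.86, SE 0.22, adjusted p = 0.0313) was lost without control replicate 2 (0.0859) or 3 (0.0946) and without DHX9-837 replicate 1 (0.0922) or 2 (0.0505). For the hairpin mean the fold was -0.55 (adjusted p = 0.0908), and without control replicate 1 it was -0.80 (adjusted p = 0.0212). Ugt2b1 read 5.48, 5.65 and 5.37 in DHX9-837, 5.66, 5.69 and 5.89 in DHX9-1271, and 5.79, 5.69 and 5.51 in control, with overlap and no call.

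**Figure D2:**
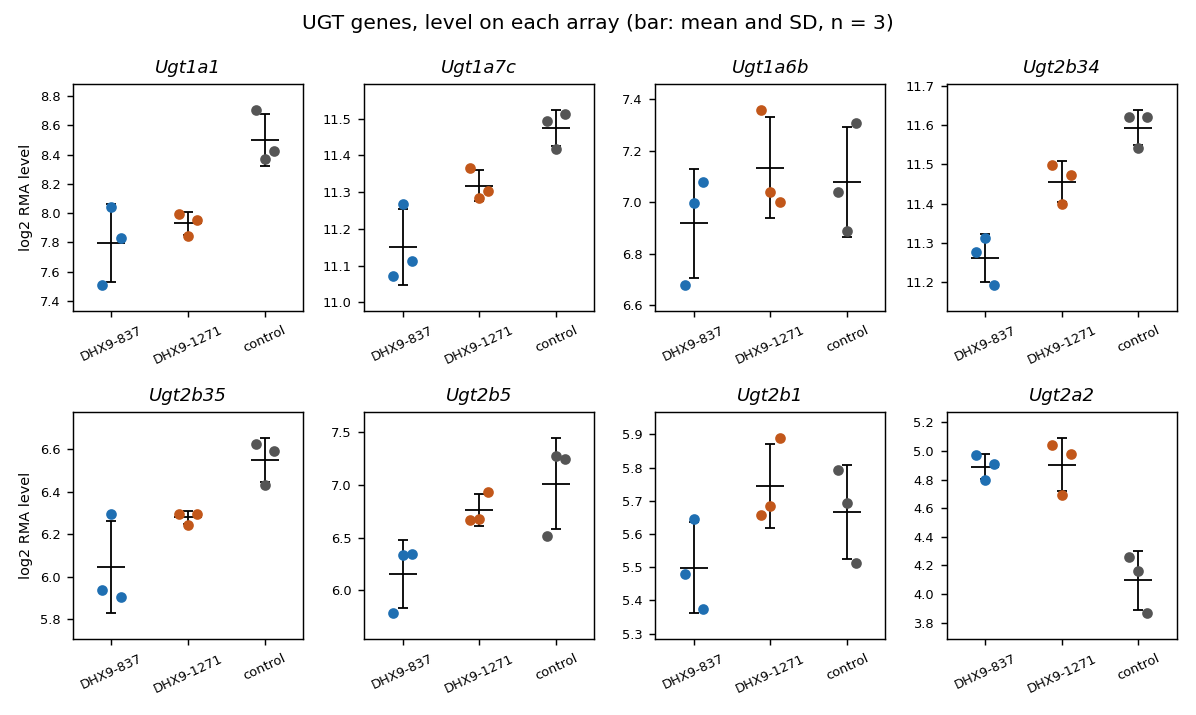
Log2 RMA level (y axis) of 8 UGT genes on each array (points), with the mean and SD of the 3 arrays, by hairpin (x axis). In Ugt1a1, Ugt1a7c, Ugt2b34 and Ugt2b35 each control array lies above every hairpin array, while in Ugt2a2, which did not pass the level filter, each lies below.

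The SULT genes split. Sult1a1 and Sult1b1 fell, most with DHX9-837, and Sult2b1 was higher with the hairpins. The median log2 fold of the 6 tested SULT genes was -0.13 with DHX9-837, -0.06 with DHX9-1271 and -0.12 for the hairpin mean, against medians over all tested genes of -0.0012, 0.0057 and 0.0011.

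Sult1a1, a sulfotransferase for phenols, read 10.05, 10.10 and 10.03 in DHX9-837, 10.61, 10.75 and 10.69 in DHX9-1271, and 11.18, 10.82 and 11.10 in control. The groups formed separate steps. It fell with DHX9-837 (-0.97, SE 0.0874, adjusted p = 0.000326), to 51.0% of control, and for the hairpin mean (-0.66, SE 0.0757, adjusted p = 0.00123). With DHX9-1271 the fold was -0.35 (adjusted p = 0.0637), and it passed the threshold without control replicate 2 (-0.45, adjusted p = 0.0116).

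Sult1b1, known for sulfating thyroid hormones, read 8.84, 8.94 and 8.83 in DHX9-837, 9.25, 9.20 and 9.20 in DHX9-1271, and 9.35, 9.39 and 9.37 in control. Again the groups did not overlap. It fell with DHX9-837 (-0.50, SE 0.0468, adjusted p = 0.00039), to 70.9% of control, and for the hairpin mean by 0.32 on the log2 scale (adjusted p = 0.00174). With DHX9-1271 the fold was -0.15 (adjusted p = 0.111).

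Sult2b1, which sulfates cholesterol and other sterols, read 8.28, 8.37 and 8.49 in DHX9-837, 8.64, 8.53 and 8.59 in DHX9-1271, and 7.83, 8.25 and 8.08 in control. All hairpin arrays lay above the control arrays. It rose for the hairpin mean (0.43, SE 0.0883, adjusted p = 0.0144) and with DHX9-1271 (0.53, SE 0.102, adjusted p = 0.0255), where the call was lost without control replicate 3 (0.0565) or DHX9-1271 replicate 1 (0.086), 2 (0.0759) or 3 (0.0983). With DHX9-837 the fold was 0.32 (adjusted p = 0.0647), and without control replicate 2 it was 0.42 (adjusted p = 0.0200).

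Sult1d1, which sulfates catecholamines in mice, read 11.26, 11.23 and 11.14 in DHX9-837, 11.29, 11.31 and 11.33 in DHX9-1271, and 11.14, 11.13 and 11.17 in control. The DHX9-1271 arrays stood clear of the controls, the DHX9-837 arrays did not, and the DHX9-1271 fold of 0.16 was not called (adjusted p = 0.0969). Sult1c2 had folds of -0.23 with DHX9-837 and -0.27 with DHX9-1271, and Sult2a4 of -0.04 and 0.04, and neither was called.

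**Figure D3:**
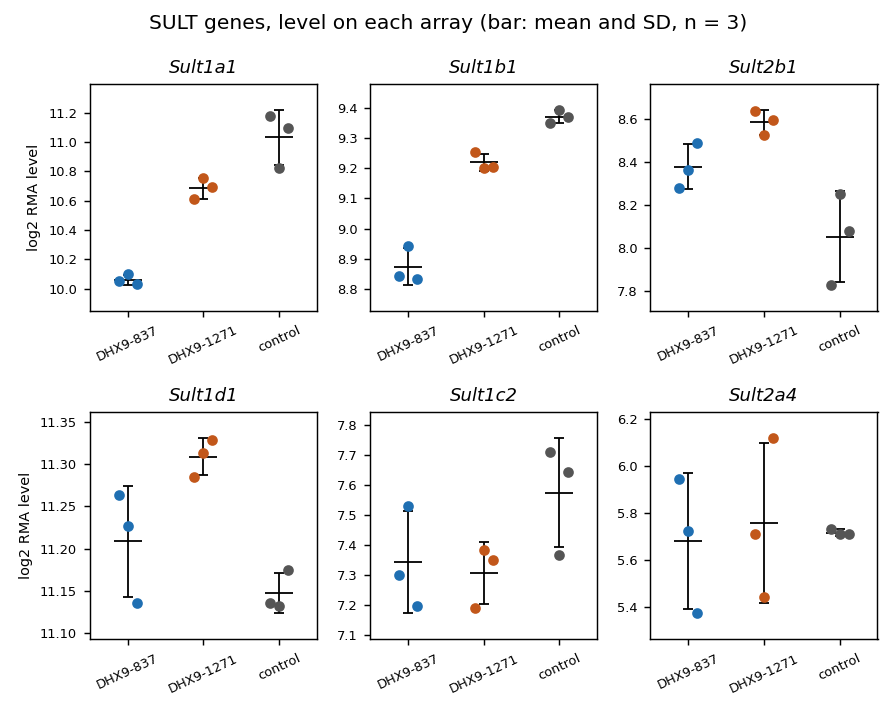
Log2 RMA level (y axis) of the 6 tested SULT genes on each array (points), with the mean and SD of the 3 arrays, by hairpin (x axis). Sult1a1 and Sult1b1 are lowest in DHX9-837, higher in DHX9-1271 and highest in control, and Sult2b1 is lowest in control.

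Among the GST genes, Gstp3 and Gstk1 rose with each hairpin, while Gsta4, Gsta3 and Mgst1 rose with DHX9-837. Gstm3 rose with DHX9-1271, and Mgst2 fell with it. The median log2 fold of the 20 tested GST genes was -0.0030 with DHX9-837 and 0.013 with DHX9-1271, with 10 positive and 10 negative in each, beside medians of -0.0012 and 0.0057 over all tested genes.

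Gstp3, a pi-class enzyme, read 8.36, 8.59 and 8.45 in DHX9-837, 8.10, 8.11 and 7.94 in DHX9-1271, and 7.56, 7.60 and 7.73 in control. The groups did not overlap, with DHX9-837 the highest. It rose 1.79-fold with DHX9-837 (log2 fold 0.84, SE 0.0779, adjusted p = 0.000369) and by 0.42 with DHX9-1271 (adjusted p = 0.0229), a call lost without control replicate 1 (0.0728) or 2 (0.0526) or DHX9-1271 replicate 1 (0.0797), 2 (0.0922) or 3 (0.0501). Gstp1, a pi-class enzyme near it on chromosome 19, had folds of 0.16 with DHX9-837 and 0.12 with DHX9-1271 and was not called. Because the pi-class copies are close, signal shared between them is uncertain.

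Gstk1, a kappa-class enzyme of mitochondria and peroxisomes, read 10.39, 10.56 and 10.30 in DHX9-837, 10.31, 10.49 and 10.36 in DHX9-1271, and 9.91, 9.75 and 10.03 in control. Every array of either hairpin lay above control. It rose with DHX9-837 (0.52, SE 0.0904, adjusted p = 0.00615) and with DHX9-1271 (0.49, SE 0.0904, adjusted p = 0.0226), and the difference between hairpins was 0.03 (95% interval -0.18 to 0.23, adjusted p = 0.936). The DHX9-1271 call was lost without control replicate 1 (0.0648) or DHX9-1271 replicate 1 (0.053), 2 (0.0903) or 3 (0.0815).

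Gsta4, which conjugates lipid peroxidation products, read 8.47, 8.54 and 8.46 in DHX9-837, 7.73, 7.79 and 7.67 in DHX9-1271, and 7.95, 7.74 and 7.81 in control. The rise was in DHX9-837, while DHX9-1271 overlapped control. It rose with DHX9-837 (0.66, SE 0.0625, adjusted p = 0.0004), and its fold with DHX9-1271 was -0.11 (adjusted p = 0.368). Its call for the hairpin mean (0.28, adjusted p = 0.0119) averages these folds, and the DHX9-1271 arrays overlapped control. Gsta3, of the same alpha class, read 6.61, 6.71 and 6.75 in DHX9-837, 5.93, 6.07 and 6.04 in DHX9-1271, and 6.24, 5.54 and 6.28 in control. Every DHX9-837 array was above every control array, and control replicate 2 stood apart. It rose with DHX9-837 (0.67, SE 0.172, adjusted p = 0.031), with a fold of 0.43 without control replicate 2, and the call was lost without DHX9-1271 replicate 3 (0.0528) or DHX9-837 replicate 1 (0.0643), 2 (0.0825) or 3 (0.0867).

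Mgst1, a membrane-bound GST of the endoplasmic reticulum and mitochondria, read 9.36, 9.41 and 9.37 in DHX9-837, 9.11, 9.15 and 9.20 in DHX9-1271, and 9.19, 9.12 and 9.16 in control. DHX9-837 lay above the other groups. It rose with DHX9-837 (0.22, SE 0.0462, adjusted p = 0.0131), and with DHX9-1271 the fold was -0.0032. Mgst2, known for making cysteinyl leukotrienes, read 9.06, 9.13 and 9.06 in DHX9-837, 8.90, 8.63 and 8.82 in DHX9-1271, and 9.06, 9.28 and 9.27 in control. DHX9-1271 lay below the other groups, and Mgst2 fell with it (-0.42, SE 0.084, adjusted p = 0.0301), lost without control replicate 2 (0.069) or 3 (0.0771), DHX9-1271 replicate 2 (0.0931) or 3 (0.0946) or DHX9-837 replicate 1 (0.0508).

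Gstm3, a mu-class enzyme, read 10.70, 10.92 and 10.64 in DHX9-837, 11.06, 11.01 and 11.00 in DHX9-1271, and 10.66, 10.45 and 10.59 in control. DHX9-1271 stood above control, and DHX9-837 overlapped it. It rose with DHX9-1271 (0.46, SE 0.0812, adjusted p = 0.0199), lost without DHX9-1271 replicate 1 (0.0709), 2 (0.0724) or 3 (0.0747), and for the hairpin mean (0.32, adjusted p = 0.0181), lost without control replicate 2 (0.0586). With DHX9-837 the fold was 0.19 (adjusted p = 0.159). The 7 Gstm genes lie close together on chromosome 3 and are close copies. The other 6, Gstm1 and Gstm2 among them, were not called in any contrast.

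Gstt1, a theta-class enzyme, read 7.37, 7.31 and 7.30 in DHX9-837, 7.33, 7.37 and 7.28 in DHX9-1271, and 7.51, 7.43 and 7.51 in control. Every hairpin array lay below control, and it fell for the hairpin mean (-0.16, SE 0.042, adjusted p = 0.0416), a call lost without control replicate 1 or 3, any single DHX9-1271 array, or DHX9-837 replicate 2 or 3 (adjusted p up to 0.122). With DHX9-837 alone its fold was -0.16 (adjusted p = 0.0605), called without control replicate 2 (0.0471). Mgst2 also fell for the hairpin mean (-0.27, adjusted p = 0.0407), a call lost without control replicate 2 or 3, DHX9-1271 replicate 2 or 3, or any single DHX9-837 array (up to 0.121). Not called were Gsto1, an omega-class enzyme (-0.06 with DHX9-837, -0.16 with DHX9-1271), Gstt3 (-0.22 and -0.16) and Mgst3 (-0.11 and -0.10).

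**Figure D4:**
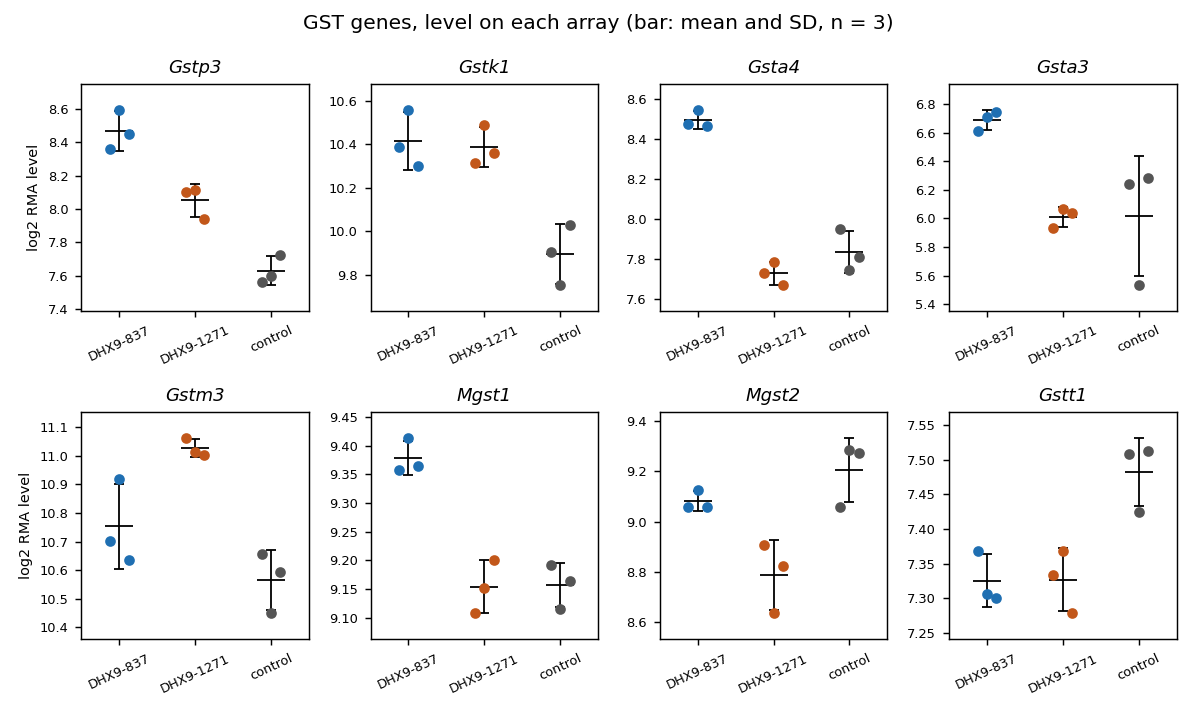
Log2 RMA level (y axis) of the 8 called GST genes on each array (points), with the mean and SD of the 3 arrays, by hairpin (x axis). Gstp3 and Gstk1 are above control with both hairpins, Gsta4, Gsta3 and Mgst1 are above control with DHX9-837, and Gstm3 is highest in DHX9-1271.

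Beside a Dhx9 difference of -0.02, 5 members differed between the hairpins. In DHX9-837 against DHX9-1271, 3 members rose and 2 fell, that is 9.09% and 6.06%, where 0.696% of all tested genes rose and 1.21% fell. Gsta4 was higher with DHX9-837 (0.76, SE 0.0625, adjusted p = 0.00194) and kept that call in every fit that left out an array. Sult1a1 was lower (-0.62, SE 0.0874, adjusted p = 0.0155), as was Sult1b1 (-0.34, SE 0.0468, adjusted p = 0.0149), and 0 falls were called in a fit that left out any single DHX9-1271 array or DHX9-837 replicate 1. Gstp3 (0.41, adjusted p = 0.0377) and Mgst1 (0.22, adjusted p = 0.0492) were also higher with DHX9-837. Of the 3 rises, 1 was called in a fit that left out control replicate 3 or any single array of either hairpin, and Mgst1 was called in 0 of 9 such fits. Gsta3 had a fold of 0.68 (adjusted p = 0.0954), which was called without control replicate 2 (adjusted p = 0.00382). The UGT genes had a negative fold in 7 of 7, with a median of -0.21, and 0 were called.

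The 25 members under the filter comprised Gsta2, Gstt4, 15 SULT genes (among them the estrogen sulfotransferase Sult1e1 and most hydroxysteroid Sult2a genes) and Ugt1a9, Ugt1a10, Ugt2a1, Ugt2a2, Ugt2a3, Ugt2b36, Ugt2b37 and Ugt2b38. Gsta2, for example, lay at 1.95 to 2.12 in DHX9-837, 1.66 to 2.10 in DHX9-1271 and 1.84 to 2.43 in control. Ugt2a2, a UGT2A enzyme, was separate: 4.80 to 4.97 in DHX9-837, 4.69 to 5.04 in DHX9-1271, and 3.87 to 4.26 in control. All 6 hairpin arrays were above the controls. Fitted with no filter, it gave log2 folds of 0.80 with DHX9-837 (adjusted p = 0.00599) and 0.81 with DHX9-1271 (adjusted p = 0.0214), at levels where signal over background was not analysed here.

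Genes that supply cofactors moved in part. Values here and in the next 2 paragraphs are for the hairpin mean unless a hairpin is named, where 8.13% of all tested genes rose and 5.33% fell. Of 3 genes for UDP-glucuronic acid, Slc35d1, which carries it into the endoplasmic reticulum, fell for the hairpin mean (-0.26, adjusted p = 0.0308), and Ugdh, which makes it, was at -0.18 (adjusted p = 0.0706). Of 6 genes for PAPS, Papss2, a PAPS synthase, fell (-0.18, adjusted p = 0.0157), while Bpnt1 (0.24, adjusted p = 0.00703) and Bpnt2 (0.26, adjusted p = 0.0457), phosphatases that clear the by-product of sulfation, rose. Of 5 tested genes for glutathione, Slc7a11, the cystine carrier, and Gsr, glutathione reductase, rose. Slc7a11 read 6.78, 7.25 and 6.42 in DHX9-837, 5.72, 5.92 and 5.69 in DHX9-1271, and 4.98, 5.30 and 5.32 in control, in separate steps. Its control mean lay under the level filter of 5.28, so it was tested because its hairpin arrays were higher. The fold was 1.10 (adjusted p = 0.00362), with 1.62 for DHX9-837 (adjusted p = 0.000929) and 0.58 for DHX9-1271 (adjusted p = 0.126). Of 9 other conjugating enzymes tested, Nat2, an arylamine N-acetyltransferase, fell (-0.44, adjusted p = 0.00421).

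Of 10 NRF2 target genes, 3 rose and 0 fell for the hairpin mean, with a median of 0.12. Over all tested genes 8.13% rose and 5.33% fell, with a median of 0.0011. The 3 rises include Slc7a11, whose control mean lay under the level filter. Ephx1, the microsomal epoxide hydrolase, read 8.33, 8.32 and 8.33 in DHX9-837, 7.47, 7.72 and 7.54 in DHX9-1271, and 6.96, 7.13 and 7.18 in control. The groups were separate, and it rose with DHX9-837 (1.24) and DHX9-1271 (0.49). Me1, a source of NADPH, rose with DHX9-837 (0.99, adjusted p = 0.0031), while with DHX9-1271 it overlapped control and was not called (0.30, adjusted p = 0.283). Nqo1, a common NRF2 readout, was at -0.04 (adjusted p = 0.816). Of 5 tested AHR targets, 0 were called, with a median of -0.04, and 2 more lay under the level filter. Cyp1a1 (5.35 to 5.64 over all arrays), Cyp1a2 (5.31 to 5.77) and Ahrr (5.46 to 5.84) lay close above that filter. Signal over background was not analysed at these levels, so their lack of a call does not show unchanged expression. Nqo1 was counted in both target lists. Tiparp, at 7.13 to 7.34, had a fold of 0.02 (adjusted p = 0.837).

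Of 9 export transporter genes, which held the P-glycoprotein genes Abcb1a and Abcb1b beside carriers of conjugates, 3 rose and 3 fell for the hairpin mean. Of all tested genes 8.13% rose and 5.33% fell. Abcc4, a multidrug resistance protein, rose (0.52, adjusted p = 0.00257), as did Abcc5 (0.29, adjusted p = 0.00783). Abcb1a, a P-glycoprotein, fell (-0.48, adjusted p = 0.000988), as did Abcg2, which exports sulfate conjugates (-0.19, adjusted p = 0.0366). Of 7 deconjugation genes, Ggt6 fell (-0.30, adjusted p = 0.0135). Of 16 regulators, 0 rose and 4 fell for the hairpin mean, against the same 8.13% and 5.33% of all tested genes: the fatty acid receptor gene Ppara (-0.37), the clock output factor genes Dbp (-0.40) and Tef (-0.47), and Nr1i3, which encodes CAR (-0.26). Ahr was at 0.05 (adjusted p = 0.662), Nfe2l2, which encodes NRF2, at 0.10 (adjusted p = 0.308), and Nr1i2, which encodes PXR, at -0.14 (adjusted p = 0.0816). Of the genes named here as called, Ephx1, Bpnt1, Abcc5, Abcb1a and Ppara were also called with DHX9-1271 alone. Over these lists 9 rises and 11 falls were called, and the falls were 6 without control replicate 1 and 7 without DHX9-1271 replicate 2 or 3.

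**Figure D5:**
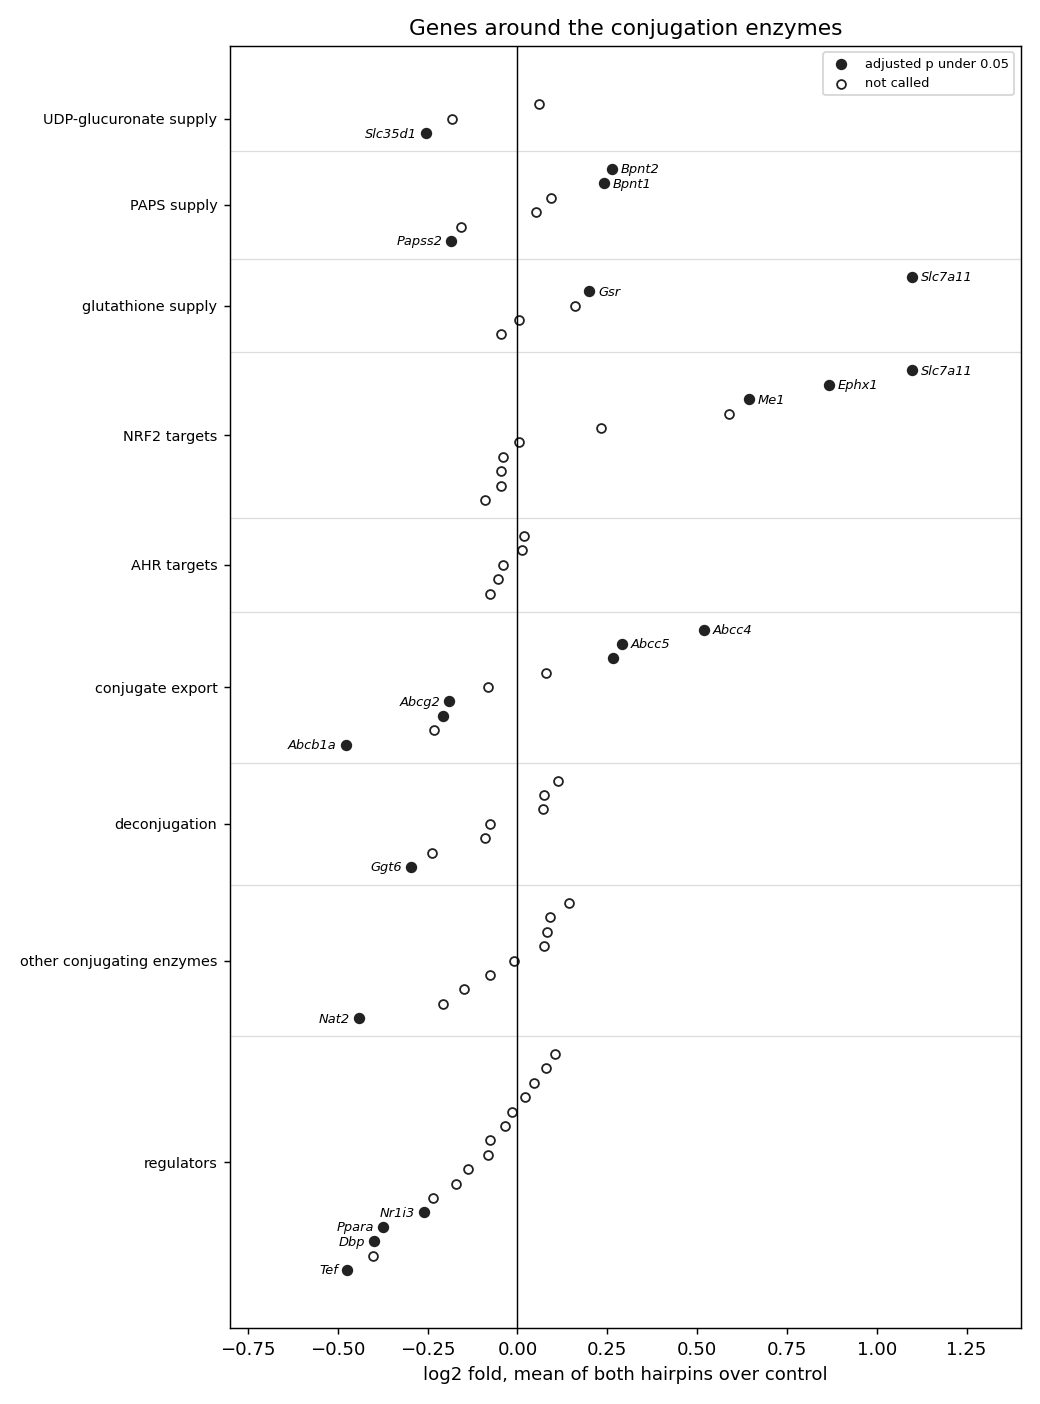
Log2 fold of the hairpin mean over control (x axis) of genes in 9 lists around the conjugation enzymes (y axis), filled where the adjusted p was under 0.05, with up to 4 called genes named per list. Slc7a11 at 1.10, with a control mean under the level filter, and Ephx1 at 0.87 lie farthest right, and Abcb1a and Tef farthest left.

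Marker levels moved beside these results. All 12 colonocyte markers passed the filter, and their mean log2 level per array was 11.68 to 11.72 in DHX9-837, 11.85 to 11.88 in DHX9-1271 and 11.92 to 11.98 in control. Of them, 5 fell with DHX9-837, 2 with DHX9-1271 and 4 for the hairpin mean, where 6.91%, 1.58% and 5.33% of all tested genes fell. For the hairpin mean 8 were not called, among them Car1 (0.05), Car2 (-0.0066) and Krt20 (-0.0025). The largest falls were in Slc37a2 (-0.85) and Slc26a3 (-0.45). The 11 general epithelial markers averaged 10.89 to 10.96 in DHX9-837, 10.85 to 10.91 in DHX9-1271 and 10.82 to 10.85 in control. They did not move together: 6 had a positive and 5 a negative fold for the hairpin mean, with a median of 0.0064. Of them 3 rose, Krt18 (0.66) the most, and 1, Cldn3 (-0.29), fell, where 8.13% of all tested genes rose and 5.33% fell. For the hairpin mean, called rises were counted for markers of macrophages (4 of 6), B and plasma cells (3 of 6), endothelium (4 of 6), fibroblasts (3 of 7) and proliferation (4 of 5), where 8.13% of all tested genes rose. Goblet (1 of 9), T cell (1 of 7) and smooth muscle (0 of 8) markers had fewer. The B and plasma cell rises were the B cell genes Pax5, Ms4a1 and Cd79b. Cd79a (0.62) and the plasma cell genes Jchain (0.08) and Mzb1 (0.09) were not called. Small intestine markers averaged 7.30 to 9.40 in DHX9-837, 6.91 to 7.62 in DHX9-1271 and 7.19 to 8.64 in control, with overlap. In DHX9-837 against DHX9-1271, 9 of 9 small intestine markers had a positive fold (median 0.59, 0 called). In the same contrast 8 of 8 smooth muscle markers had a negative fold (median -0.22, 1 called). Over all tested genes that median was -0.0040, with 0.696% rising and 1.21% falling. The part of these markers in the UGT, SULT and GST results was not tested.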

How the data were processed

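Titles assigned 9 large intestine arrays to groups. Deposited levels are log2 RMA values, for which the submitters' processing notes list oligo 1.30.0 and R 3.1.1. Which probe set definition and build the authors used is not stated in the labels. RMA's quantile step would hide a shift common to most transcripts, and 45.3% of tested genes had identical values on 2 or more arrays. Arrays have no read depth: their number limits the precision.

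The platform's probe table gave 1 symbol for 24015 of 24973 probe sets. The brightest probe set stood for each of 24011 genes, and 7203 under the level filter were left out. limma 3.58.1 in R 4.3.3 fitted group means over all 9 arrays (6 residual and 2.84 prior degrees of freedom; median residual SD 0.0913), with 4 contrasts and two-sided adjusted p-values, and was tested on simulated data. An exact two-sided permutation test was added for Dhx9 (p = 0.1 for each hairpin, and 0.0119 for both hairpins pooled as 1 group). Each is the smallest p that its number of splits allows (20 for each hairpin and 84 pooled). Figures used Python 3.11.15 and matplotlib 3.10.9.

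Named members were those called in any contrast, the 3 brightest of each subfamily, and up to 4 uncalled members with the largest fold and no overlap with control. Sult1c2, Sult2a4, Ugt2b1 and Ugt2a2 were named after their values were seen. From each other list up to 4 genes of smallest p were named, with Ahr, Nr1i2 and Nfe2l2. The members and lists were chosen with earlier results of these data known. Alternatives changed the filter, scaling, moderation, arrays fitted, fold limit and replicate block, and left out each array.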

Additional observations from a re-analysis of the deposited data

Results flagged for a closer look

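A difference between the hairpins' effects, tested as DHX9-837 against DHX9-1271 in limma, brought 5 members here. The DHX9-837 effect minus the DHX9-1271 effect was 0.76 on the log2 scale for Gsta4, 0.41 for Gstp3, 0.22 for Mgst1, -0.62 for Sult1a1 and -0.34 for Sult1b1. All 3 DHX9-837 arrays lay above the DHX9-1271 arrays for Gsta4, Gstp3 and Mgst1, and below them for Sult1a1 and Sult1b1. Of the 16808 tested genes, 1575 lay above in this way and 2113 below. The calls came from the same arrays, so this adds no support to them. Of the 9 fits that left out an array, Gsta4 kept its call in 9, Sult1a1 and Sult1b1 in 5, Gstp3 in 2 and Mgst1 in 0.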

How the results depend on the processing

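No alternative turned a direction among the called results. Of 587 alternative values for single genes called in the reported or the alternative setting, 465 kept their side of the threshold, 94 lost a call and 28 gained one. With a 1.5-fold limit the members that rose and fell were 3 and 3 with DHX9-837, 0 and 0 with DHX9-1271, 1 and 2 for the hairpin mean, and 1 and 1 between hairpins, and the surrounding lists had 3 rises and 0 falls. The DHX9-1271 falls (1) were 3 with cyclic loess, 2 with array centring, 4 with a trended variance, 4 with a median filter and 0 with no filter. With no filter, rises between hairpins were 1 and falls in the surrounding lists 7. Leaving out each array gave 4 to 6 rises and 6 to 7 falls with DHX9-837, 0 to 4 and 0 to 2 with DHX9-1271, 4 to 5 and 4 to 8 for the hairpin mean, 1 to 3 and 0 to 2 between hairpins, and 7 to 10 and 6 to 11 in the surrounding lists. The causes were not tested. Signal over background was not analysed here.

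After each group's mean was subtracted, 2 of 9 same-numbered pairs of arrays correlated over 0.1 (range -0.366 to 0.262). With 3 arrays per group, this cannot settle whether replicate numbers pair the samples. With the replicate block, DHX9-1271 had 1 rise and 0 falls, 1 rise was called between hairpins, and Ugt2b5 was called for the hairpin mean (adjusted p = 0.0256).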

Other observations

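Among members under the level filter, Sult2a2 lay at 2.33 to 2.64 in DHX9-837, 2.26 to 2.67 in DHX9-1271 and 2.83 to 3.101 in control. Ugt2b38 lay at 2.13 to 2.27 in DHX9-837, 2.14 to 2.31 in DHX9-1271 and 2.39 to 2.64 in control, and without the filter its log2 fold for the hairpin mean was -0.29 (adjusted p = 0.0422). Sult2a5 lay at 4.57 on each DHX9-837 array, at 4.24 to 4.55 in DHX9-1271 and at 4.66 to 5.15 in control. Without the filter its log2 fold for the hairpin mean was -0.37 (adjusted p = 0.0806). These genes were chosen after their values were seen.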
